A study of Mus musculus with 151 samples.

Results

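The 10 immediate-early genes described here are *Fos*, *Fosb*, *Egr1*, *Jun*, *Junb*, *Jund*, *Ier2*, *Atf3*, *Nr4a1* and *Btg2*. They were taken as a list by symbol and are 10 of the 55291 genes in the count table. On GRCm38 *Fos* lies at chr12:85473890-85477273 on the plus strand, *Jun* at chr4:95049034-95052222 on the minus strand, *Nr4a1* at chr15:101254269-101274795 on the plus strand and *Btg2* at chr1:134075170-134079120 on the minus strand. *Atf3* is on chromosome 1, *Fosb* on 7, *Jund*, *Ier2* and *Junb* on 8 and *Egr1* on 18. Their level, spread and covariation were described in single cochlear hair cells of C57BL/6 mice in 3 groups. The 55 P14_WT IHCs and the 50 P30_WT IHCs were inner hair cells of vGlut3-P2A-iCreER/+; Ai9/+ mice at postnatal day 14 and 30. The 46 P14_iOHCs were cells of vGlut3-P2A-iCreER/+; Tbx2 flox/-; Ai9/+ mice at postnatal day 14, in which tamoxifen given to the newborn mice acts on the floxed allele of *Tbx2*, the other allele being null in the germline.

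All mice carried the tamoxifen-inducible Cre in *Slc17a8* (vGlut3), which is active in inner hair cells, and the Tdtomato reporter Ai9, and all received tamoxifen. Tissue was digested with papain and DNase I at 37°C and then with a protease and dispase at 25°C, and Tdtomato+ cells were picked by hand. The smaller Tdtomato+ cells of the *Tbx2* mutants were picked as iOHCs, and the larger ones were left. Every library holds 1 cell, and the number of mice behind a group is not given in the labels. Each group was therefore treated as 1 sample, and no test and no p-value is given. The SDs below are spreads between cells.

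Immediate-early genes are transcribed within minutes of a rise in calcium, a growth factor, depolarization or stress, without the need for new protein. Most of them encode transcription factors that carry the signal to later genes, and their transcripts are short-lived. Serum response factor and CREB, which are already bound in resting cells, start their transcription, and phosphatases such as *Dusp1* and RNA-decay factors such as *Zfp36* shut the response down. Inner hair cells are the cochlear receptors that pass sound to the auditory nerve, whereas outer hair cells amplify it. All the cells here went through the digestion, so the level in undisturbed tissue and any change during preparation cannot be told apart.

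The labels were first set against the defining genes. *Slc17a8* stood at 1230 ± 317 CPM (counts per 1000000 counts of the cell; SD, n = 55 cells) in P14_WT IHCs, at 1344 ± 539 CPM (SD, n = 50 cells) in P30_WT IHCs and at 123 ± 194 CPM (SD, n = 46 cells) in P14_iOHCs. *Slc26a5*, which encodes the outer hair cell motor protein prestin, was at most 4.01 CPM in any wild-type cell and lay between 142 and 2787 CPM in P14_iOHCs. *Tbx2* was at 260 ± 127, 193 ± 103 and 69.3 ± 87.4 CPM in the same order. Total counts ranged from 4326416 to 25035444 per cell and fell into 2 separate sets. The lower set held 51 cells, at or below 10267217, and the upper set held 100 cells, from 11814928. In the wild-type groups the sets followed the cell numbers of the labels. The lower set was P30_WT IHCs 1 to 23 and P14_WT IHCs 1 to 16, and it held 12 of the 46 P14_iOHCs, all numbered 1 to 18. The labels give no batch for these numbers, so both comparisons and the main correlations are also given within a set.

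The promoters of 4 of the 10 genes show the kinds of short motif found near their starts. Of the 10 genes, 8 had an entry in the promoter sequences of RefSeq (GRCm38.p6), the others being *Egr1* and *Ier2*. Each sequence is the 250 bases before the transcription start, 5′ to 3′ on the strand of the gene, and capitals mark the letters TGACG, TGACNTCA, GCGNGGGCG or TATAAA on either strand. They lie at chr12:85473640-85473889 on the plus strand (*Fos*), chr4:95052223-95052472 on the minus strand (*Jun*), chr15:101266596-101266845 on the plus strand (*Nr4a1*) and chr1:134079156-134079405 on the minus strand (*Btg2*). The window of *Nr4a1* precedes a start inside the span of the gene, which begins at chr15:101254269.
Fos: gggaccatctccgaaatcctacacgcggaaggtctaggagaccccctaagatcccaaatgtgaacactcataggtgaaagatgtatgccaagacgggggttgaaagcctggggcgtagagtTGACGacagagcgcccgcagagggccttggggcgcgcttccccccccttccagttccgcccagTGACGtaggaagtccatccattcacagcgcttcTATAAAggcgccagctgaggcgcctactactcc
Jun: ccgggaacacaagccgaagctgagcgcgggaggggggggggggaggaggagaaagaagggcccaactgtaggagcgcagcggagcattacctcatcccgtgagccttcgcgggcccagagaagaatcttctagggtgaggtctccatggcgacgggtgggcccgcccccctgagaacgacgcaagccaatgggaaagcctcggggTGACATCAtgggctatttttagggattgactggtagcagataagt
Nr4a1: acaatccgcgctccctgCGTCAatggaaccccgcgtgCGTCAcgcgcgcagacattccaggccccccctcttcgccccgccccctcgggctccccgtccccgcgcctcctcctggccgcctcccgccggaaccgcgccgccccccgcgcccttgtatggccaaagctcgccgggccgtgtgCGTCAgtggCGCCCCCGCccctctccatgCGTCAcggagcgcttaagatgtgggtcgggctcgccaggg
Btg2: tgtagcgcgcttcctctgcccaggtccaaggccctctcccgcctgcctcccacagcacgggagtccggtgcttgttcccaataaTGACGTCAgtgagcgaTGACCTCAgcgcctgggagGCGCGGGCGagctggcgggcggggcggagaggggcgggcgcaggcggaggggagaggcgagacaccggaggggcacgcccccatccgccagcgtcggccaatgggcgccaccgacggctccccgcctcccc
TGACG, the core of the cAMP response element to which CREB binds, was in 6 of the 8 promoters (*Atf3*, *Btg2*, *Fos*, *Fosb*, *Junb* and *Nr4a1*), with 17.8% of all 32851 promoters of the same length holding it. *Nr4a1* held it 4 times, at 40 to 233 bases before the start. The full element TGACGTCA, which contains this core, was found in *Btg2* alone of the 8, and in 1.55% of all promoters. TGACNTCA, which includes the full element and the site of *Jun* 45 bases before its start, was in *Btg2* and *Jun* and in 7.49% of all. GCGNGGGCG, to which EGR1 binds, was in *Btg2*, *Fosb* and *Nr4a1* and in 4.70% of all promoters. The AP-1 site TGANTCA and the CArG box of serum response factor were in 0 of the 8 windows and in 6.75% and 1.47% of all, and TATAAA was in *Fos* and in 12.4% of all. These are matches of letters only.

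The FOS and JUN proteins pair to form the factor AP-1, and the JUN family held the steadiest of the 10 genes. *Jun* was counted in every cell. Its level in P14_WT IHCs was 784 ± 452 CPM (SD, n = 55 cells), with a lowest cell of 3.33, a median of 766 and a highest of 2151 CPM. The P14_iOHCs stood at 705 ± 621 CPM (SD, n = 46 cells; lowest 0.46, median 583, highest 2890), and the P30_WT IHCs at 958 ± 629 CPM (SD, n = 50 cells; lowest 0.95, median 780, highest 2688). The 3 ranges overlapped almost wholly. *Jund*, the member of the family known for its constitutive expression, was counted in every cell too, with medians of 60.8, 55.3 and 69.2 CPM in P14_WT IHCs, P14_iOHCs and P30_WT IHCs and a highest cell of 142, 293 and 184 CPM. Its coefficient of variation, the SD over the mean, was 0.52, 0.82 and 0.50. Among all genes whose mean reached 10 CPM, 11.1%, 20.9% and 6.03% had a lower one. *Junb*, which is induced and often restrains JUN, was far more spread than *Jund*, from 0 to 478 CPM (median 59.7), 0 to 2260 CPM (median 99.3) and 0 to 644 CPM (median 101). Of the same genes, 53.4%, 68.6% and 33.2% had a lower coefficient of variation than *Junb*.

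*Fos* and *Fosb* varied from cell to cell. The coefficient of variation of *Fos* exceeded that of 60.4%, 70.6% and 39.8% of all genes whose mean reached 10 CPM. For *Fosb* the shares were 69.5%, 77.7% and 63.9%, in P14_WT IHCs, P14_iOHCs and P30_WT IHCs in turn. *Fos* had a median of 150 CPM (0 to 1280) in P14_WT IHCs, 224 CPM (0.61 to 5007) in P14_iOHCs and 423 CPM (0 to 3700) in P30_WT IHCs. It exceeded 10 CPM in 39 of 55 P14_WT IHCs (70.9%, 95% exact binomial interval 57.1 to 82.4%), in 40 of 46 P14_iOHCs (87.0%, 73.7 to 95.1%) and in 44 of 50 P30_WT IHCs (88.0%, 75.7 to 95.5%). The limit of 10 CPM, set after the values were seen, lay above the 0.12 to 0.69 CPM that 3 counts made. These intervals cover the counting of cells only, not the spread between mice. *Fosb*, whose product has a shorter stable form, ΔFosB, that builds up on repeated stimulation, was lower and as uneven. Its median was 23.3 CPM (0 to 293), 15.7 CPM (0 to 771) and 46.4 CPM (0 to 880), and it was at 0 in 15, 7 and 8 cells of the groups.

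Of the other transcription factors, *Egr1*, a zinc finger activator, was the most abundant, with medians of 212 CPM (0 to 1257) in P14_WT IHCs, 137 CPM (0 to 3092) in P14_iOHCs and 325 CPM (0 to 3210) in P30_WT IHCs. *Atf3*, a stress-induced member of the ATF/CREB family, and *Nr4a1*, an orphan nuclear receptor (Nur77), were at or under 10 CPM in most cells of every group. *Atf3* was at 0 in 37 of 55 P14_WT IHCs, 21 of 46 P14_iOHCs and 31 of 50 P30_WT IHCs, and *Nr4a1* in 37, 21 and 25 cells. *Atf3* exceeded 10 CPM in 12 of 55, 12 of 46 and 13 of 50 cells, and *Nr4a1* in 11, 14 and 14 cells of the same groups. The few cells that had them could be high: the highest *Atf3* value was 182 CPM in P14_WT IHCs, 868 CPM in P14_iOHCs and 238 CPM in P30_WT IHCs, and the highest *Nr4a1* value was 103, 525 and 136 CPM.

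The remaining members encode regulators that do not bind DNA by themselves in the manner of AP-1. *Btg2*, an antiproliferative cofactor of mRNA deadenylation, was steady in wild-type IHCs, at 274 ± 174 CPM (SD, n = 55 cells; 9.48 to 936) at postnatal day 14 and 375 ± 224 CPM (SD, n = 50 cells; 0 to 846) at postnatal day 30. In P14_iOHCs it was at 153 ± 217 CPM (SD, n = 46 cells; 0 to 1011) with a median of 82.8 CPM, and 4 cells were at 0. *Ier2*, a small nuclear protein gene, had a median of 26.99 CPM (0 to 209) in P14_WT IHCs, 101 CPM (0 to 2100) in P14_iOHCs and 24.3 CPM (0 to 537) in P30_WT IHCs.

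**Figure D1:**
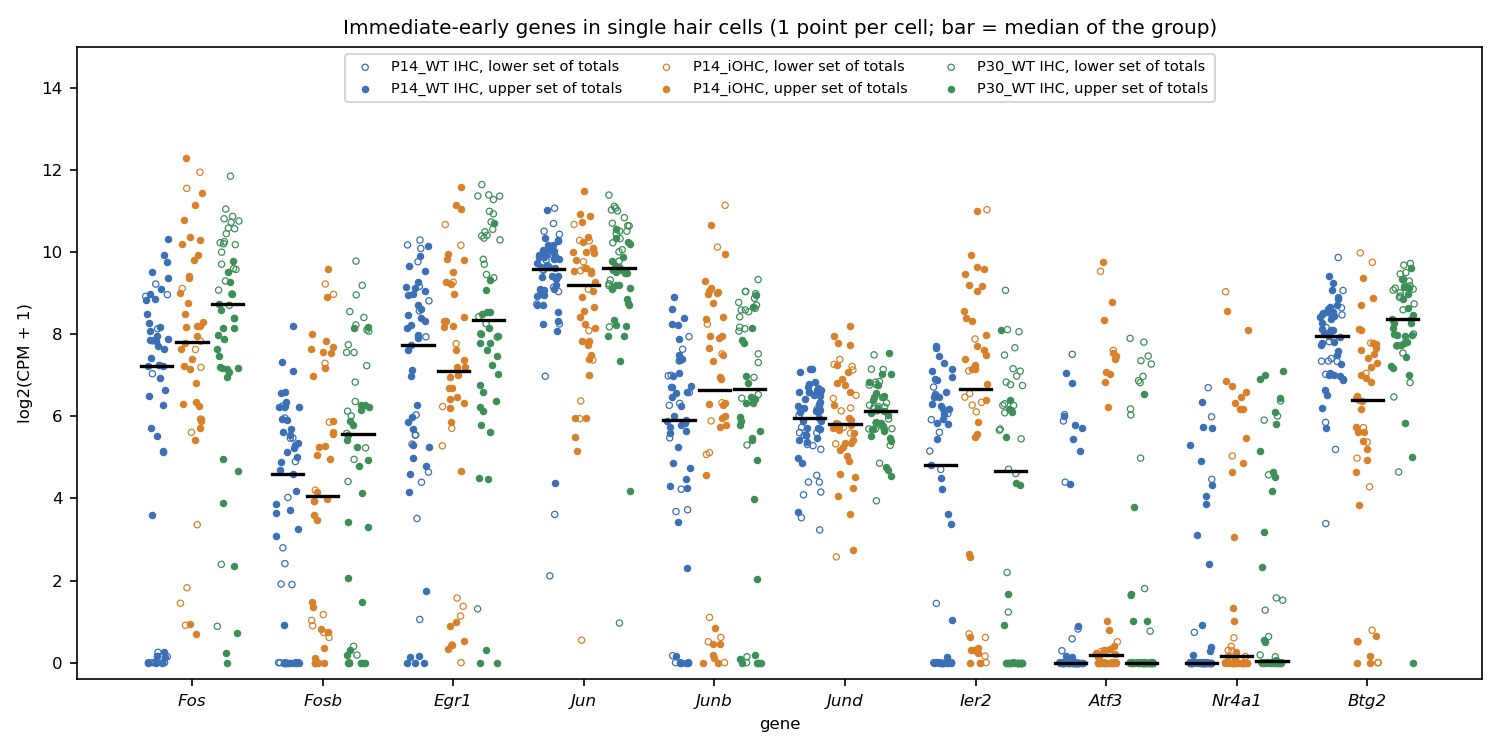
Level of each immediate-early gene, as log2(CPM + 1) on the vertical axis, in each cell, grouped by gene on the horizontal axis and coloured by group, with open points for the lower and filled points for the upper set of total counts and a bar at the median of the group. *Jun*, *Jund* and *Btg2* are present in nearly every cell, and *Atf3* and *Nr4a1* lie near 0 in most. The open green points of *Fos*, *Egr1* and *Jun* have higher medians than the filled ones, with overlap.

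Between genes, levels were compared per length, as TPM from union exon lengths. *Jun* had the highest mean in P14_WT IHCs, at 606 TPM, before *Btg2* at 244 and *Fos* at 242 TPM. In P14_iOHCs *Fos* was at 667, *Jun* at 508 and *Ier2* at 420 TPM, and in P30_WT IHCs *Jun* was at 688, *Fos* at 656 and *Egr1* at 382 TPM. *Nr4a1* was the lowest of the 10 in each group, at 6.44, 27.5 and 12.4 TPM. Ordered by mean CPM over the groups, 5 members were highest in P14_iOHCs (*Junb*, *Jund*, *Ier2*, *Atf3* and *Nr4a1*), 5 in P30_WT IHCs (*Fos*, *Fosb*, *Egr1*, *Jun* and *Btg2*) and 0 in P14_WT IHCs. In all 20 steps between neighbours in these orders the gap was smaller than the larger of the SDs between cells. Counting error was small beside this: *Nr4a1*, the member with the fewest counts, pooled over the cells stood at 7.80 CPM in P14_WT IHCs (95% exact Poisson interval 7.60 to 7.99), at 41.5 CPM in P14_iOHCs (41.07 to 42.02) and at 21.3 CPM in P30_WT IHCs (20.96 to 21.67). The reads carried no molecular identifiers, so these intervals cover counting error only. *Jun* overlaps the antisense gene *Junos* over 689 bases and *Jund* the antisense gene *Gm11175* over 919 of its 1668 bases. *Junb* shares 351 bases with *Prdx2*, and *Atf3* 108 with *Gm24748*. Whether counting used the strand is not given in the sources used here, so reads of these partners cannot be told apart there. *Gm11175* was listed at 0 in every cell, and *Junos* at a median of 0 and at most 30.9 CPM.

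The study's own comparison at postnatal day 14 set the P14_iOHCs against the P14_WT IHCs, to ask what the loss of *Tbx2* does to inner hair cells. The means of 8 members were higher in P14_iOHCs and those of 2 lower. *Ier2* was at 277 ± 461 against 50.04 ± 57.8 CPM (SD, n = 46 and 55 cells), a log2 ratio of 2.47. *Atf3* was at 77.3 ± 183 against 15.2 ± 36.3 CPM and *Nr4a1* at 42.2 ± 103 against 9.12 ± 21.7 CPM, log2 ratios of 2.34 and 2.21. These 3 were over 4-fold higher, as were 12.3% of the 14485 genes past the filter. With *Fos* (1.56), *Junb* (1.56) and *Fosb* (1.40), 6 members were over 2-fold higher, against 22.1% of genes. *Egr1* (0.45), *Jund* (0.34) and *Jun* (-0.15) were closer to the wild type, and *Btg2* was lower, at -0.84, with 0 members over 2-fold or 4-fold lower, against 14.4% and 6.53% of genes. The median log2 ratio of the 10 was 1.48, that of all genes 0.10. All 10 passed the filter, a mean of 1 CPM and a count in 10% of the cells in either group.

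These means were carried by a minority of the iOHCs. The 5 highest of the 46 iOHCs held 54.6% of the summed CPM of *Fos*, 52.7% of *Ier2*, 72.3% of *Atf3* and 71.9% of *Nr4a1*. In P14_WT IHCs the 5 highest of 55 cells held 35.8%, 32.2%, 66.2% and 69.8%. For *Fosb* and *Egr1* the mean was higher in iOHCs while the median cell was lower, at 15.7 against 23.3 CPM and at 137 against 212 CPM. With the median cell as the level, the median log2 ratio of the 10 was 0.01 and 1 member, *Ier2*, was over 2-fold higher. The share of all genes over 2-fold higher by the median cell was not computed. The iOHCs went past the whole wild-type range at the top. Of the 46 cells, 14 had more *Ier2* than any P14_WT IHC, 10 more *Junb*, 8 more *Jund*, 7 more *Fos* and 6 more *Atf3*, and 1 each had more *Jun* or *Btg2*. At the bottom, *Btg2* was above the wild-type median in 7 of the 46 iOHCs. In the cells numbered 14 and 23, the iOHCs with the highest scores over the 10 genes, *Fos* stood at 3950 and 2765 CPM, *Junb* at 2260 and 991 CPM and *Nr4a1* at 525 and 378 CPM.

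Some of the iOHCs carried transcripts of supporting cells, the neighbours that hold hair cells in place. The score of 18 supporting-cell markers, the mean of log2(CPM + 1), exceeded 4.34, the highest value among P14_WT IHCs, in 14 of the 46 iOHCs. The summed level of the list ranged from 3800 to 9457 CPM (median 5428) in P14_WT IHCs, from 2282 to 21392 CPM (median 6241) in P14_iOHCs and from 1002 to 8731 CPM (median 4741) in P30_WT IHCs. Most cells had a count for 1, 10 and 4 of the 18 genes in these groups, *Prox1* was at 0 in all P14 cells and *Epyc* at 0 in all P30 cells. The sum in wild-type IHCs can therefore rest on few of the 18 genes, and the part of each was not computed. The 14 iOHCs held a median of 647 CPM of *Slc26a5* (262 to 1383), against 1111 CPM (142 to 2787) in the other 32. Their 12 hair cell markers summed to a median of 3533 CPM, against 6016 CPM. They had a median of 10590 detected genes against 8169, and their fibroblast markers summed to a median of 725 against 59.9 CPM. Of the 19 iOHCs that exceeded every P14_WT IHC in at least 1 member, 11 were among these 14. Of the 9 that did so in at least 3 members 8 were among them, and so were 5 of the 5 that did so in at least 5 members. The part of these measures in the result was not tested.

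Without the 14 cells, 0 members were over 2-fold or 4-fold higher, against 17.8% and 8.22% of genes, and the median log2 ratio was 0.25. *Ier2* was then at 82.5 ± 97.6 CPM (SD, n = 32 cells), a log2 ratio of 0.72 over the P14_WT IHCs. *Fos* was at 275 ± 528 CPM (0.26), *Atf3* at 18.01 ± 49.3 CPM (0.24) and *Nr4a1* at 12.2 ± 30.3 CPM (0.41). *Egr1* turned to lower, at 182 ± 269 CPM (-0.78), and *Btg2* moved further down, to 96.4 ± 158 CPM (-1.51), over 2-fold lower as were 17.7% of genes, with 0 members over 4-fold lower against 8.7%. *Btg2* was thus lower in the iOHCs with and without these cells, and in each set of totals, at -0.42 in the lower and -1.02 in the upper set. *Ier2* was higher in each of them, at 3.50 in the lower and 2.23 in the upper set. *Egr1* was lower in the lower set (-0.31) and higher in the upper set (0.74). In the lower set (12 against 16 cells) 7 members were over 2-fold and 4 over 4-fold higher, against 23.2% and 13.3% of genes, and 0 were over 2-fold or 4-fold lower, against 26.5% and 16.6%. In the upper set (34 against 39 cells) 6 were over 2-fold and 3 over 4-fold higher, against 24.3% and 13.8%, while *Btg2* alone was over 2-fold lower, against 15.6%, and 0 were over 4-fold lower, against 7.32%.

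**Figure D2:**
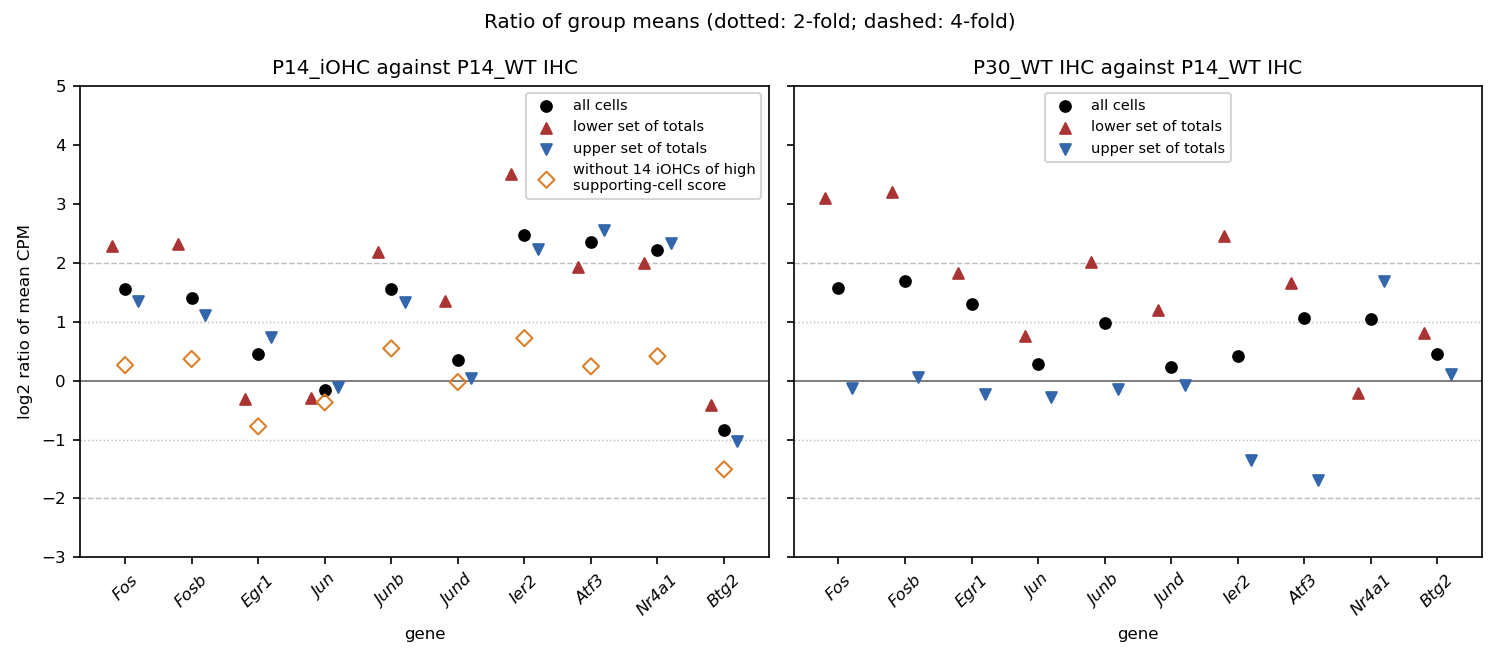
Log2 ratio of mean CPM (vertical axis) of each immediate-early gene (horizontal axis) for P14_iOHCs over P14_WT IHCs (left) and P30_WT IHCs over P14_WT IHCs (right), over all cells and within each set of total counts, with open diamonds for the comparison without 14 iOHCs of high supporting-cell score. The diamonds lie between -1.51 and 0.72, and on the right the lower set runs up to 3.20 while the upper set lies between -1.68 and 1.69.

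The comparison of ages set P30_WT IHCs against the same P14_WT IHCs, so both comparisons share these 55 cells. The mean of all 10 members was higher at postnatal day 30. *Fosb* was at 118 ± 177 against 36.9 ± 50.7 CPM (SD, n = 50 and 55 cells, log2 ratio 1.68), *Fos* at 684 ± 739 against 229 ± 280 CPM (1.58) and *Egr1* at 766 ± 878 against 312 ± 348 CPM (1.29). *Atf3* (1.06) and *Nr4a1* (1.04) were over 2-fold higher as well, which made 5 members, against 12.5% of the 13813 genes past the filter, and 0 were over 4-fold higher, against 4.97%. None was lower, where 11.5% of genes were over 2-fold and 4.34% over 4-fold lower. *Junb* (0.98), *Btg2* (0.45), *Ier2* (0.42), *Jun* (0.29) and *Jund* (0.24) followed. The median over the 10 was 1.01, that of all genes -0.0042.

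This difference was large in the lower set of totals and absent from the median of the upper set. In the lower set, 23 P30_WT IHCs against 16 P14_WT IHCs gave a median log2 ratio of 1.74, with 7 members over 2-fold and 4 over 4-fold higher (17.5% and 9.5% of genes) and 0 over 2-fold or 4-fold lower (22.4% and 11.4%). In the upper set, 27 against 39 cells gave a median of -0.13, with 1 member over 2-fold higher (15.6% of genes) and 2, *Ier2* and *Atf3*, over 2-fold lower (14.8% of genes), and 0 over 4-fold in either direction (6.82% higher, 7.29% lower). *Fos* was at 1202 ± 797 against 141 ± 212 CPM in the lower set (SD, n = 23 and 16 cells) and at 243 ± 232 against 266 ± 298 CPM in the upper set (SD, n = 27 and 39 cells). *Egr1* was at 1386 ± 919 against 392 ± 458 CPM in the lower and at 237 ± 330 against 279 ± 293 CPM in the upper set. *Nr4a1* was the exception, at 10.2 ± 23.8 against 11.7 ± 29.2 CPM in the lower and at 26.1 ± 43.2 against 8.06 ± 18.2 CPM in the upper set.

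Among the P30_WT IHCs, cells 1 to 23 and cells 24 to 50 differed by a median log2 ratio of 1.93 over the 10 genes, against 1.01 between the ages. *Fos* had a median of 1181 CPM in the former and 176 CPM in the latter, and 14 of the 23 cells lay above all 27 others. For *Egr1* the medians were 1349 and 152 CPM, for *Jun* 1397 and 592 CPM, with 8 and 9 of 23 cells above all others. *Junb* had medians of 343 and 54.3 CPM, *Fosb* 150 and 16.7 CPM and *Ier2* 78.1 and 0 CPM. *Atf3* was counted in 14 of 23 against 5 of 27 cells. In mean CPM, 5 members (*Atf3*, *Egr1*, *Fos*, *Ier2* and *Fosb*) were over 4-fold and 7 over 2-fold higher in the lower set, against 7.35% and 14.8% of genes. *Jund* did not share in this, at 79.5 ± 39.6 and 72.3 ± 37.1 CPM, and *Nr4a1* was over 2-fold lower, at 10.2 ± 23.8 and 26.1 ± 43.2 CPM (18.7% of genes), with 0 over 4-fold lower (9.04%). The cells numbered 1 to 23 also had a mitochondrial share of 12.4 ± 5.84% against 6.76 ± 1.43% and *Slc17a8* at 1700 ± 509 against 1041 ± 348 CPM. Their supporting-cell markers summed to a median of 5108 against 4556 CPM. The part of depth and of these measures in the difference was not tested. In P14_WT IHCs the same split gave 0 members over 2-fold or 4-fold higher in the lower set, against 16.2% and 7.59% of genes, and 2 (*Ier2* and *Jund*) over 2-fold and 0 over 4-fold lower, against 15.2% and 8.23%. In P14_iOHCs it gave 0 members over 2-fold in either direction, against 12.7% higher and 23.5% lower, and 0 over 4-fold, against 4.56% and 13.9%.

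**Figure D3:**
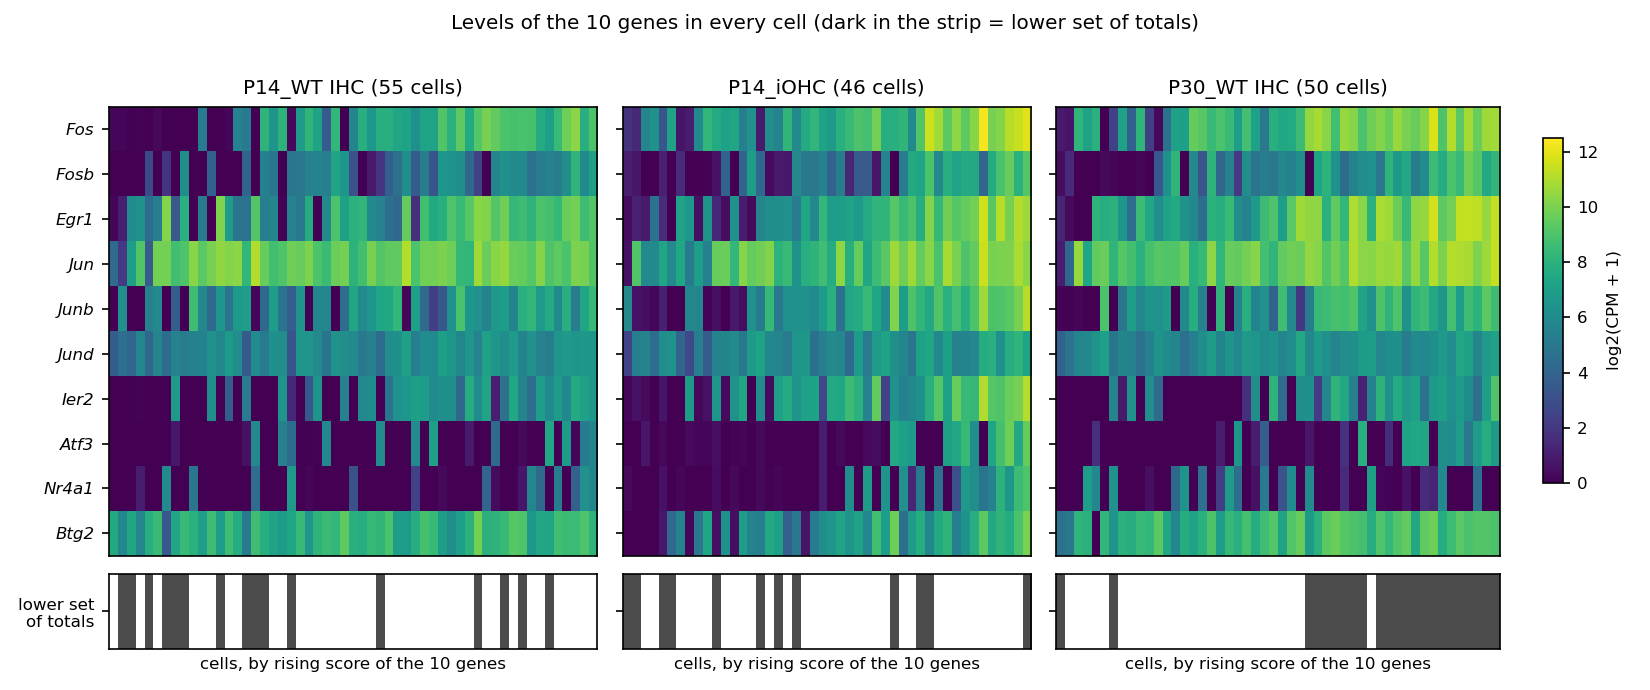
Levels of the 10 immediate-early genes (rows), as log2(CPM + 1) by colour, in every cell (columns) of each group, ordered by the score of the 10 genes, with a strip below that is dark for cells of the lower set of total counts. In P30_WT IHCs the dark cells gather at the high end, and in P14_iOHCs the highest cells carry nearly all members at once.

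Covariation was described by Spearman's rho across the cells of each group, for the 45 pairs of members. The cells of a group share their preparation and differ in depth, and no p is given. In P14_WT IHCs the median rho was 0.178 (-0.159 to 0.548, n = 55 cells), 0.214 within the lower and 0.170 within the upper set, and 2 pairs passed 0.5, *Fos* with *Fosb* (0.55) and *Fos* with *Jund* (0.51). *Jun* and *Junb* were at -0.12. *Jund* and *Fos* had the highest median rho with the other 9, 0.39 and 0.35.

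In P14_iOHCs all 45 pairs were positive, with a median rho of 0.525 (0.161 to 0.800, n = 46 cells), and 25 passed 0.5. *Egr1* with *Junb* was at 0.80, *Fos* with *Egr1* at 0.78 and *Fos* with *Ier2* at 0.75. The lowest pair was *Jund* with *Atf3*. The median was 0.524 within the lower set (n = 12 cells) and 0.561 within the upper set (n = 34 cells). With ranks adjusted for the total count and the number of detected genes it was 0.368, adjusted for the supporting-cell score 0.425, and without the 14 iOHCs of high supporting-cell score 0.334 (n = 32 cells). In P14_WT IHCs the same adjustments gave 0.198 for total count and detected genes and 0.161 for the supporting-cell score, against 0.178 unadjusted. Each iOHC median stood above its P14_WT IHC counterpart, the unadjusted one for the 32 cells. No test of the difference was made. All 10 genes were counted in 15 of 46 iOHCs, against 7 of 55 P14_WT IHCs and 7 of 50 P30_WT IHCs. Some of these counts are traces. *Atf3* had a count but stayed at or under 10 CPM in 13 iOHCs, 6 P14_WT IHCs and 6 P30_WT IHCs, and *Nr4a1* in 11, 7 and 11.

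The P30_WT IHCs fell into the sets of totals described above, so their correlation is given within each. The median rho was 0.221 in the lower set (n = 23 cells), with *Egr1* and *Jun* at 0.75, and 0.090 in the upper set (n = 27 cells), with *Jun* and *Jund* at 0.62. Over all 50 cells together the median was 0.403, and with ranks adjusted for the set 0.229. *Nr4a1* went against the other members in the lower set, with a median rho of -0.16 and its lowest value, -0.48, with *Jund*. In the upper set its median was 0.02.

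**Figure D4:**
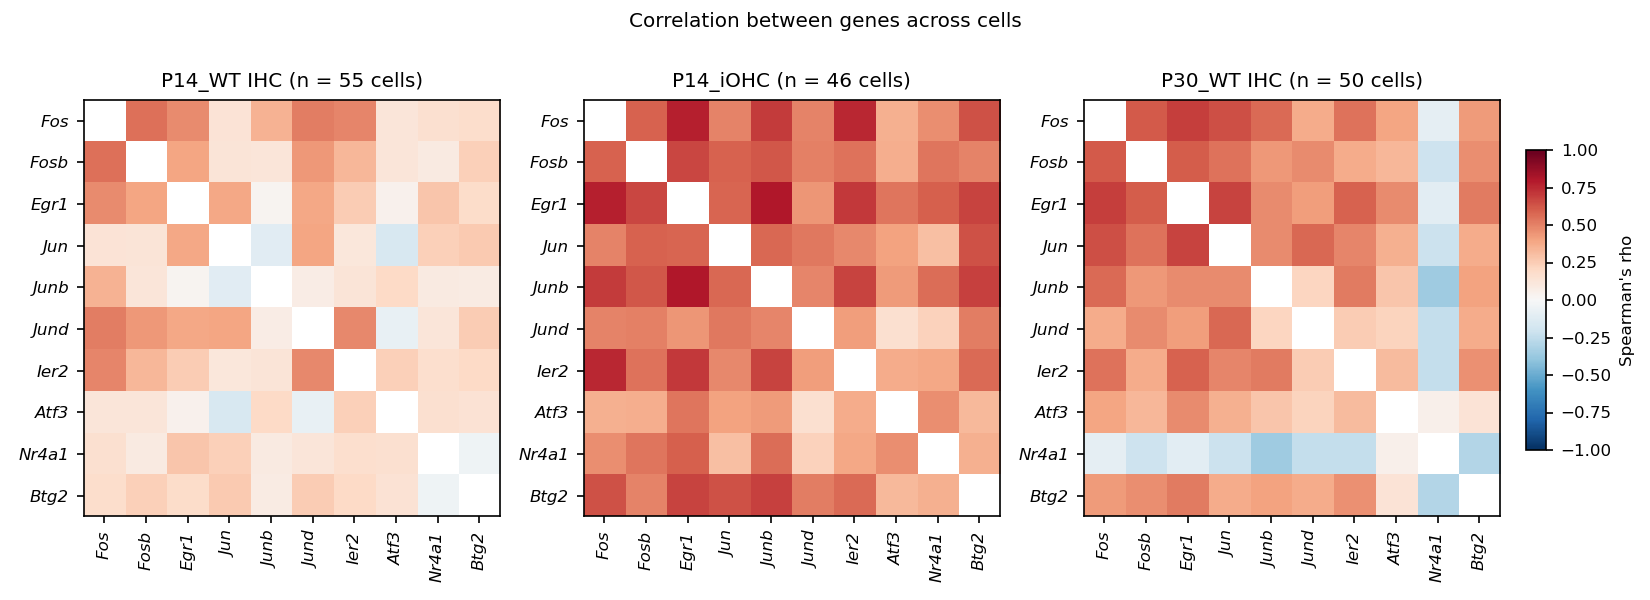
Spearman's rho between each pair of the 10 immediate-early genes across the cells of a group, by colour from -1 to 1, for 55 P14_WT IHCs, 46 P14_iOHCs and 50 P30_WT IHCs. The matrix of P14_iOHCs is positive throughout, that of P14_WT IHCs is pale, and the row of *Nr4a1* in P30_WT IHCs is mostly negative.

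The score of the 10 genes, the mean of log2(CPM + 1), was 4.99 ± 1.32 (SD, n = 55 cells) in P14_WT IHCs. It was 5.77 ± 1.58 (SD, n = 50 cells) in P30_WT IHCs, and P14_iOHCs had a score of 5.38 ± 2.27 (SD, n = 46 cells). Its range was widest in P14_iOHCs, from 1.28 to 10.0. In these cells it went with the number of detected genes (rho 0.75, 0.66 in the lower and 0.74 in the upper set), the supporting-cell score (0.64, 0.68 and 0.65) and the fibroblast score (0.54, 0.45 and 0.57), and against *Slc26a5* (-0.43, -0.48 and -0.43). It had little relation to *Slc17a8* (-0.12) or *Tbx2* (0.18), and rho with the total count was 0.33. By gene, *Ier2* was the most and *Jun* the least related to the supporting-cell score, at 0.74 and 0.18. In P14_WT IHCs rho with the number of detected genes was -0.02 (-0.0029 in the lower and -0.02 in the upper set), with *Tbx2* 0.09 (0.23 and 0.21) and with the supporting-cell score 0.28 (0.57 and 0.11). In P30_WT IHCs rho with the total count was 0.30 in the lower and 0.20 in the upper set, against -0.55 over both sets, and with *Slc17a8* 0.32 and 0.03, against 0.57 over both.

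**Figure D5:**
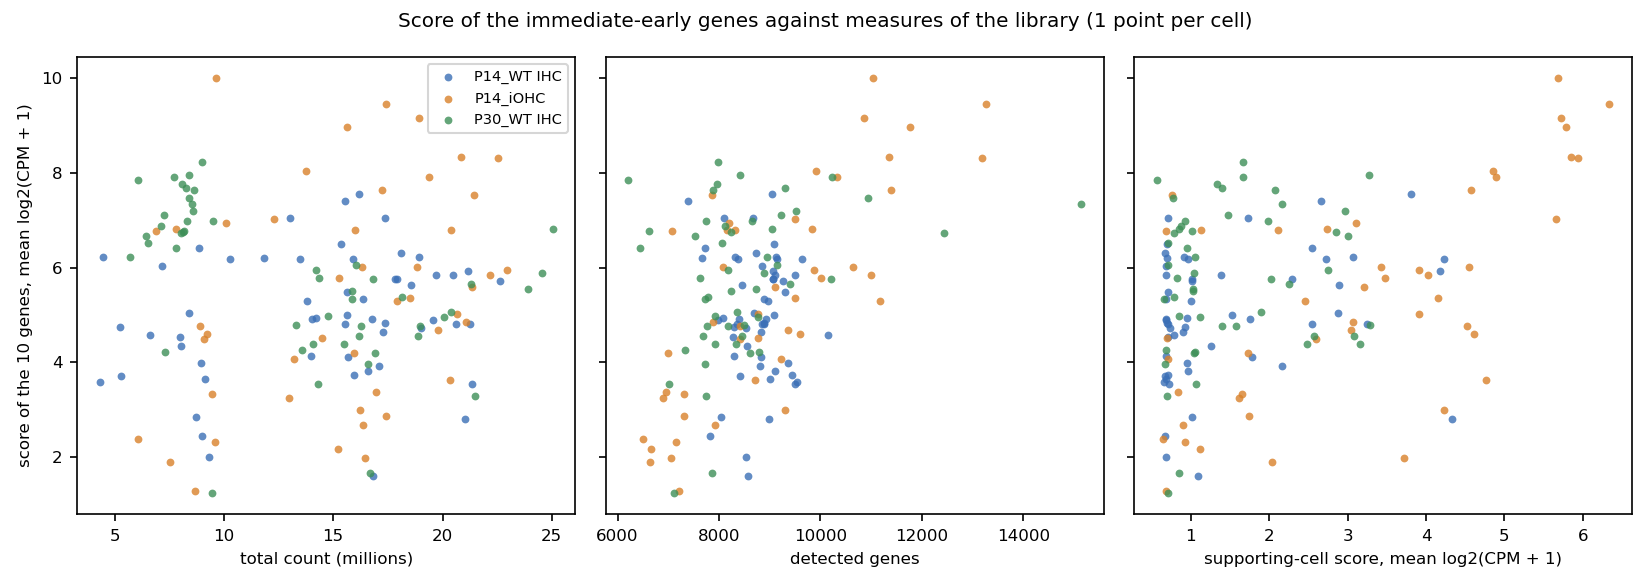
Score of the 10 immediate-early genes (mean log2(CPM + 1), vertical axis) in each cell against the total count in units of 1000000 counts, the number of detected genes and the supporting-cell score, coloured by group. The P30_WT IHCs of low total count form a group of high score on the left, and the orange P14_iOHCs run upward in the middle and right panels (rho 0.75 and 0.64).

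The wider network was described with 73 related genes in 6 lists: AP-1 relatives, EGR and NR4A relatives, other early transcription factors, early effectors, feedback inhibitors, and the factors that induce the response. In P14_iOHCs against P14_WT IHCs, 62 of the 73 passed the filter. Of these, 25 were over 2-fold higher (22.1% of all genes) and 4 lower (14.4%), 17 over 4-fold higher (12.3%) and 2 lower (6.53%), with a median log2 ratio of 0.48. Within the lower set of totals, 24 of the 59 that passed were over 2-fold higher (23.2% of genes) and 10 lower (26.5%). Within the upper set 26 of 62 were higher (24.3%) and 6 lower (15.6%). The related genes were not compared without the 14 iOHCs of high supporting-cell score. Of the 12 feedback inhibitors, which end the response, 6 were over 2-fold higher and 0 lower, with a median of 1.18. Of the 10 other early transcription factors 5 were higher and 1 lower (median 1.09), of the 17 early effectors 8 and 2 (0.69), and of the 4 EGR and NR4A relatives 2 and 1 (1.32). The 11 inducing factors, *Srf*, *Creb1* and the like, had a median of 0.06 with 1 over 2-fold higher, and the 8 AP-1 relatives a median of -0.0087 with 3 higher. By the fixed rule the 5 most higher were *Arc*, *Nfil3*, *Ier3*, *Jdp2* and *Plk2*. *Arc*, the synaptic gene of active neurons, was at 11.9 ± 51.6 CPM with a count in 9 of 46 iOHCs, *Nfil3*, a bZIP repressor, at 4.04 ± 10.2 CPM in 12 cells and *Ier3* at 1.72 ± 8.09 CPM in 8 cells, and all 3 were at 0 in every P14_WT IHC. With a reference of 0 no fold is given. *Jdp2*, a repressor of AP-1, was at 4.67 ± 9.98 CPM in 20 iOHCs against 1 count in the P14_WT IHCs, and the kinase gene *Plk2* at 28.2 ± 51.8 CPM in 23 iOHCs against 28 counts, all in 1 cell. All 5 genes passed the filter through the iOHCs alone. The counts past a fold include such genes, as do the shares of all genes.

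The 5 most lower of the related genes in P14_iOHCs were *Nr4a2*, *Myc*, *Gadd45a*, *Ccn1* and *Per1*. *Nr4a2*, the close relative of *Nr4a1*, was at 2.43 ± 8.22 against 13.0 ± 25.0 CPM, a log2 ratio of -2.41. The mean of *Nr4a1* went the other way, at 2.21, but at 0.41 without the 14 iOHCs of high supporting-cell score. The 5 highest iOHCs held 71.9% of the summed CPM of *Nr4a1*, and its median was 0.12 against 0 CPM. *Gadd45a*, a stress and growth arrest gene, was at 16.2 CPM against 52.3 ± 37.1 CPM (-1.69; -0.19 in the lower and -2.20 in the upper set) and counted in 29 of 46 against 53 of 55 cells. *Ccn1*, a secreted matrix protein gene (-1.22), *Myc* (-2.36) and the clock gene *Per1* (-0.95) completed them.

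In P30_WT IHCs against P14_WT IHCs, 54 related genes passed the filter. Of these, 10 were over 2-fold higher (12.5% of genes) and 6 lower (11.5%), with a median of 0.18, and in the upper set of totals the median of the 50 that passed was -0.04. The 5 most higher were *Arc*, *Socs3*, *Plk2*, *Mef2c* and *Klf2*, each with a mean of at most 3.00 CPM in P30_WT IHCs. Each had a mean under 1 CPM in P14_WT IHCs, so all 5 passed the filter through the P30_WT IHCs alone. The 5 most lower were *Bhlhe40*, at 4.73 CPM against 22.5 ± 44.7 CPM, *Srf*, at 0.98 ± 3.49 against 4.58 ± 13.0 CPM, *Klf10* (-1.94), *Gadd45a* (-1.65) and *Myc* (-1.30). *Gadd45a* and *Myc* were thus lower than in P14_WT IHCs in both comparisons, which share those cells.

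Genes outside the list were ranked by Spearman's rho with the score, among genes that reached a mean of 5 CPM and had a count in at least 50% of the cells. In P14_iOHCs the closest was *Dusp1* (0.76), the phosphatase that ends MAP kinase signalling. *Cebpb* (0.73), *Arf6* (0.73), *Ptp4a1* (0.70), *Hes1* (0.70), *Dstn*, *Ptma*, *Col9a2*, *Ccn4* and *Spock1* (0.68 each) came next, of which *Hes1* is among the supporting-cell markers. Of 7798 genes, 3.77% passed a rho of 0.5, and of 37 related genes 8 did, among them *Zfp36l1*, *Klf6*, *Klf10* and *Zfp36*. In P14_WT IHCs *Gm37419* (0.53), *Ccn1* (0.53) and *Igfbp5* (0.50) led, followed by *Runx1t1*, *Tmem267*, *Amot*, *Magi3*, *Selenos*, *Derl2* and *Sorbs2* (0.47 to 0.50), and 0.0267% of 7493 genes passed 0.5. The level of *Dusp1* was 271 ± 449 CPM in P14_iOHCs and 54.99 ± 75.9 CPM in P14_WT IHCs.

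In P30_WT IHCs the leading genes over all 50 cells were *Gm15459* (0.68), *mt-Nd1*, *Gpr3*, *Gm7964*, *Elovl4*, *mt-Co1*, *Dusp8*, *Hsd17b7*, *mt-Cytb* and *mt-Nd3* (0.60 to 0.67), of which 4 are genes of the mitochondrial genome. That list follows the sets of totals. Within the upper set *Lysmd3* (0.71) and *Tars2* (0.70) led, and within the lower set *Zfp622* (0.75), *Ppfia1* and *Nop58* (0.71 each). Over all cells 0 of 32 related genes passed a rho of 0.5, as did only 0.555% of the 7202 genes ranked. The 100 closest genes of the 3 groups had 0 genes in common. P14_WT IHCs and P14_iOHCs shared 1 of their 100 (*Igfbp5*), and P14_WT and P30_WT IHCs shared 1 (*Fbxo46*).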

How the data were processed

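Single Tdtomato+ cells were picked by hand from digested cochleae and each was made into 1 Smart-Seq HT library, sequenced as paired ends. The count table, with 55291 genes, was deposited by the authors as raw read counts, not normalized. The submitters' processing notes name FastQC 0.11.9, Trimmomatic 0.39, HISAT2 2.1.0, StringTie 1.3.5, HTSeq 0.10.0 and mm10. The annotation release, the strand setting and the treatment of reads with several matches are not given in the sources used here.

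Groups came from the sample titles. CPM was the count divided by the total over all genes times 1000000, and TPM used union exon lengths of the reference annotation on GRCm38, which gave 53292 of the 55291 genes a length. A group level was the mean CPM over its cells. Genes entered a comparison where either group had a mean of at least 1 CPM and a count in at least 10% of its cells, and members past 2-fold and 4-fold were counted beside all such genes. No animal is named for any cell, so no test across cells was made. Total counts were split at 11000000 into a lower and an upper set. The members, the related genes, the marker lists and the split were chosen with earlier results of these data known.

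Named genes were the 10 members, for each comparison the 5 related genes with the largest ratio in each direction, and in each group the 10 genes closest to the member score, with marker genes only beside a result. Depth was 4326416 to 25035444 counts per cell (median 15557333), so that 3 counts stood for 0.12 to 0.69 CPM. No cells shared identical counts. Alternatives were other group levels, TMM and median-of-ratios scaling, no filter, totals without mitochondrial genes, thinning to 4000000 counts, each set of totals, and the removal of extreme cells. The comparisons without iOHCs of high supporting-cell score, with both sets weighted equally, and adjusted for the set were added after the data were seen. The ratio and correlation steps were tested on simulated data. Python 3.11.15, numpy 2.4.6, pandas 2.3.3, scipy 1.17.1, matplotlib 3.10.9, R 4.3.3 and edgeR 4.0.16 (for TMM) were used, with seed 20220 for thinning.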

Additional observations from a re-analysis of the deposited data

How the results depend on the processing

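No paired analysis was possible because the comparisons hold no test that could carry a block, and nothing in the labels ties a cell to the cell of the same number in another group. For the 10 genes in P14_iOHCs against P14_WT IHCs, 112 values under the alternatives moved by less than 1.5-fold, 27 moved further and 1, of a member over 2-fold higher in the report, changed sign. The 112 include the values without the filter, 1 for each of the 10 genes, which could not move. Members closer to the wild type also changed sign, *Egr1* to -0.78 without the 14 iOHCs. With the median cell as the level, the median log2 ratio was 0.012, 0 members were over 4-fold and 1 over 2-fold higher, 1 was over 2-fold lower, and *Fosb* stood at -0.54. For other group levels and scalings, here and below, the share of all genes past a fold was not computed. Member counts under them are therefore not set against a background. With the mean of log2(CPM + 1) the median was 0.54, with 0 members over 4-fold higher, 2 over 2-fold higher and 1, *Btg2*, over 4-fold lower. Without the 14 iOHCs of high supporting-cell score it was 0.25, with 0 members over 4-fold or 2-fold higher, against 8.22% and 17.8% of genes.

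In P30_WT IHCs against P14_WT IHCs, 109 values moved by less than 1.5-fold, 15 moved further and 6, of members over 2-fold higher in the report, changed sign. The 109 again include the values without the filter, which could not move. *Ier2*, closer to the wild type at P14, was at -0.18 with pooled counts. With the median cell the median log2 ratio was 0.29, 1 member was over 2-fold higher and *Atf3* was at 0 on the log2 scale. With the mean of log2(CPM + 1) and with median-of-ratios scaling 1 member was over 4-fold higher, with 3 over 2-fold higher in the former. Pooled counts gave 3 over 2-fold higher. The share of all genes was not computed for these levels and scalings. The lower set gave a median of 1.74, 4 members over 4-fold higher and *Nr4a1* at -0.21. The upper set gave a median of -0.13, with *Fos* at -0.13, *Egr1* at -0.24 and *Atf3* at -1.68, 1 member over 2-fold higher and 2 lower. With both sets weighted equally *Atf3* was at -0.013 and 2 members were over 2-fold higher, with no share of all genes computed. The cause was not tested.

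The median rho over pairs in P14_iOHCs was 0.368 with ranks adjusted for total count and detected genes and 0.334 without the 14 cells. In P30_WT IHCs it was 0.221 in the lower set, 0.090 in the upper set, 0.277 adjusted for total count and detected genes and 0.229 adjusted for the set.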

Other observations

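Markers of cell types other than hair cells and supporting cells were summed per cell. The 6 endothelial markers summed to at most 68.4 CPM in P14_WT IHCs, 9.13 CPM in P14_iOHCs and 203.7 CPM in P30_WT IHCs, and the 7 immune markers to at most 117.7, 67.2 and 72.4 CPM. The 7 glial markers had a median sum of 0, 29.1 and 0 CPM, with a highest cell of 77.2, 277.0 and 45.8 CPM, and rho with the score of the immediate-early genes in P14_iOHCs was 0.33 (-0.05 in the lower and 0.51 in the upper set). The 5 hemoglobin and red cell genes reached 257.3, 495.9 and 64.6 CPM. The 8 neuronal markers had medians of 496.8, 422.5 and 556.2 CPM, with 4 of the 8 counted in most cells of each group. The 7 fibroblast markers ranged from 0 to 864.9 CPM (median 86.6) in P14_WT IHCs, from 0 to 4594 CPM (median 115.8) in P14_iOHCs and from 0 to 530.4 CPM (median 78.2) in P30_WT IHCs.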
